A study of Mus musculus with 4 samples.

Results

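The genes of the tricarboxylic acid (TCA) cycle and of branched-chain amino acid breakdown were followed on 4 arrays of mouse brown adipocytes. They were taken from a list of 34 gene symbols, 15 for the TCA cycle (with pyruvate carboxylase) and 19 for leucine, isoleucine and valine breakdown. The list goes by pathway and not by measured values, but it was drawn up with earlier results of these data known. Of these, 31 were named by a probe set with exactly 1 gene symbol in the platform annotation, 14 in the TCA cycle and 17 in branched-chain amino acid breakdown, out of 17097 genes in all. Dld, Ivd and Mcee were not named by the annotation used here and were not analysed here. Each gene was represented by its brightest probe set, the one with the highest mean over the 4 arrays.

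The knockdown cells expressed a short hairpin RNA (shRNA) against Blnc1, a long noncoding RNA of brown fat, and gave 2 arrays (shBlnc1). The control cells expressed a scrambled shRNA and gave 2 arrays (Scramble). Both were brown adipocytes differentiated for 6 days, and 250 ng of total RNA was labelled from each sample. The labels call the samples biological replicates without naming separate cultures, and they give no strain, age or source of the cells, so p-values measure the spread between these samples only. Blnc1 itself is not named by the annotation, so the knockdown was not checked here.

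The TCA cycle is the mitochondrial pathway that oxidises acetyl-CoA and passes the electrons to the respiratory chain. Leucine, isoleucine and valine are first transaminated to keto acids, which a dehydrogenase complex in the mitochondrion then commits to oxidation. Partly separate enzymes carry the 3 skeletons on to products that include acetyl-CoA and propionyl-CoA, and propionyl-CoA enters the cycle as succinyl-CoA. Brown fat is known to burn fatty acids, glucose and branched-chain amino acids when it makes heat.

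The defining fat cell genes were bright on every array, with mean log2 values of 11.85 in shBlnc1 and 11.78 in Scramble for Adipoq, and 12.33 and 12.31 for Fabp4. Of 6 measured markers of fat cells of any type, 1 was lower (Cebpa, log2 fold change -0.47), 1 was higher (Cd36, 0.40) and 4 were not called (Adipoq, Fabp4, Pparg and Lipe, at -0.33 to 0.07). Of 9 brown fat markers 5 were lower in shBlnc1 (55.6%, against 7.18% of all genes) and 1 was higher (11.1%, against 11.4%). The lower ones were Ucp1 (-1.87), Cidea (-2.01), Cox8b (-0.88), Cox7a1 (-0.60) and Dio2 (-0.95), and the higher one was Elovl3 (1.07). Prdm16, Ebf2 and Zbtb7b were not called, at -0.40 to -0.14. Of 8 skeletal muscle markers 1 was lower and 1 higher (25% called). Of 5 macrophage and 4 endothelial markers 1 each was higher (20% and 25%), where 18.5% of all genes were called. Hepatocyte markers, preadipocyte and fibroblast markers and a measure of RNA quality moved with the groups. Of 9 hepatocyte markers 8 were lower in shBlnc1 (88.9%, against 7.18% of all genes). The summed level of the 9 (log2 of the summed linear values) was 6.59 and 6.22 in shBlnc1 against 8.24 and 8.17 in Scramble. The remaining 1, Fgb, lay at or below the background value of 2.55 in both groups. Of 7 preadipocyte and fibroblast markers 6 were higher (85.7%, against 11.4% of all genes). Their summed levels were 8.31 and 8.28 in shBlnc1 against 7.11 and 7.24 in Scramble. The Actb control probe set at the 3' end exceeded that at the 5' end by a log2 ratio of 1.77 and 1.88 in shBlnc1 and 0.99 and 1.15 in Scramble. The part of these shifts in the results on the 2 pathways was not tested, and in such bulk samples fewer cells of a type and less RNA per cell cannot be told apart.

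In the shBlnc1 arrays 10 of the 31 genes passed an adjusted p of 0.05 in limma, 8 of them lower and 2 higher. The lower genes encode the decarboxylase of the oxoglutarate dehydrogenase complex (Ogdh), both subunits of GDP-forming succinyl-CoA ligase (Suclg1, Suclg2), a subunit of the branched-chain keto acid dehydrogenase (Bckdha) and later enzymes of valine, isoleucine and leucine breakdown (Hibch, Hibadh, Hsd17b10, Auh). The higher genes encode the 2 subunits of methylcrotonyl-CoA carboxylase, Mccc1 and Mccc2, an enzyme of leucine breakdown. All these changes were small, between 1.31-fold and 1.44-fold, and no member reached a change of 1 log2 unit. Of the members 32.3% were called, 25.8% lower and 6.45% higher, against 18.5% of all genes, 7.18% lower and 11.4% higher. With the dimmest 40% of genes left out, 4 of 14 TCA cycle genes (3 lower) and 8 of 15 branched-chain genes (6 lower) were called, against 32.3% of the 10259 genes that remained (11.9% lower). The groups did not overlap for 28 of the 31 members, or 90.3%, against 62.6% of all genes.

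The calls rest on all 4 arrays. Without shBlnc1 replicate 1, limma called 0 of 14 TCA cycle genes and 0 of 17 branched-chain genes, with 2 and 9 at an unadjusted p under 0.05. Without shBlnc1 replicate 2 the calls were also 0 and 0, with 4 and 6 at that unadjusted level. Without Scramble replicate 1 there were 1 and 4 calls, and without Scramble replicate 2 there were 1 and 6. The 10 called genes kept their direction in each of these fits, which could not turn out otherwise because their groups did not overlap.

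**Figure D1:**
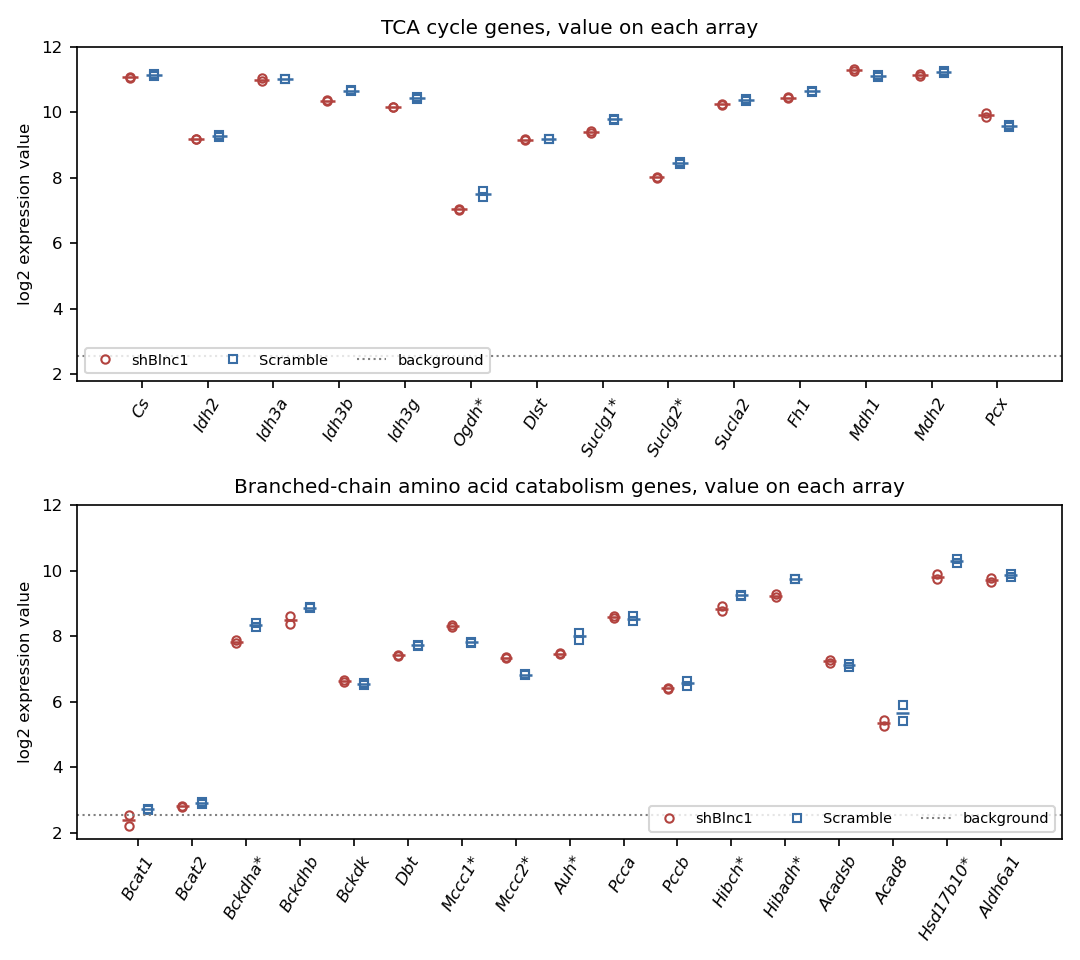
Log2 expression value (y axis) of the 14 TCA cycle genes (top) and 17 branched-chain amino acid genes (bottom) on each array, with circles for the 2 shBlnc1 arrays, squares for the 2 Scramble arrays, bars for group means, a dotted line at the background value and a star beside genes with an adjusted p at or under 0.05. Most genes lie far above background, and Bcat1 and Bcat2 lie beside it. Levels of different genes come from different probe sets and are not comparable.

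Entry into the cycle was measured at citrate synthase, which joins acetyl-CoA to oxaloacetate. Cs read 11.09 and 11.05 in shBlnc1 against 11.17 and 11.11 in Scramble, a log2 fold change of -0.07 with a 95% interval of -0.30 to 0.17. Its 3 probe sets gave -0.07, 0.17 and 0.0019, so neither a rise nor a fall was detectable. Of the isocitrate dehydrogenases, Idh2, the mitochondrial NADP-linked enzyme, had a log2 fold change of -0.09 (adjusted p = 0.579).

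The NAD-linked isocitrate dehydrogenase has a catalytic subunit, Idh3a, and 2 further subunits, Idh3b and Idh3g. Idh3b read 10.37 and 10.35 in shBlnc1 and 10.65 and 10.68 in Scramble, and Idh3g read 10.15 and 10.17 against 10.46 and 10.40. Both had groups that did not overlap but missed the threshold, with log2 fold changes of -0.30 (adjusted p = 0.0779) and -0.27 (adjusted p = 0.106). The Idh3b probe set is of a type that can match transcripts of more than 1 gene, and a second one gave -0.31. A second probe set of Idh3g gave -0.47, with an adjusted p of 0.0248 over all probe sets. The brightest probe set of Idh3a overlapped between the groups, at 11.06 and 10.95 in shBlnc1 and 11.03 and 11.02 in Scramble. Its dimmest one, which read 6.59 and 6.73 against 6.17 and 6.23, was higher in shBlnc1 by 0.46 (adjusted p = 0.0325 over all probe sets). The direction of Idh3a therefore depended on the probe set.

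The oxoglutarate dehydrogenase complex turns oxoglutarate into succinyl-CoA, with Ogdh as its decarboxylase and Dlst as its succinyl transferase. Ogdh read 7.05 and 7.02 in shBlnc1 against 7.60 and 7.42 in Scramble, and all shBlnc1 values lay below all Scramble values. It was 1.39-fold lower (log2 fold change -0.48 ± 0.11 SE, adjusted p = 0.0254), and the mean of its 2 probe sets gave -0.30 with an adjusted p of 0.114. The brightest Dlst probe set differed little, with 9.17 and 9.15 in shBlnc1 and 9.19 and 9.19 in Scramble. A dimmer Dlst probe set was lower, at 5.50 and 5.46 against 6.14 and 6.15, a log2 fold change of -0.66 (adjusted p = 0.00707 over all probe sets).

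Windows around 2 Ogdh start sites are shown because Ogdh was the only one of 29 members with a RefSeq promoter entry whose windows held the estrogen-related receptor letters described further on. They are 300 bases long, 250 before the start and 50 after it, on GRCm38.p6, plus strand, and capitals mark the letters searched, on either strand. The first lies at chr11:6291920-6292219 and holds AAGGTCA on the reverse strand. The other, at chr11:6292308-6292607, holds GCATGCG on both strands, in overlapping matches.
Ogdh, inner start: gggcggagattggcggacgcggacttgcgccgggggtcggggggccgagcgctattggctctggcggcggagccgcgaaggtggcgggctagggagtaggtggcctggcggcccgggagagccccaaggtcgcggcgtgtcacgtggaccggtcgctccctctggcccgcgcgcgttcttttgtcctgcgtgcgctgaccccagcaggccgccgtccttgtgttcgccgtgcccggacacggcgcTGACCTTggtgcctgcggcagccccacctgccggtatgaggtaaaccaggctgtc
Ogdh, later start: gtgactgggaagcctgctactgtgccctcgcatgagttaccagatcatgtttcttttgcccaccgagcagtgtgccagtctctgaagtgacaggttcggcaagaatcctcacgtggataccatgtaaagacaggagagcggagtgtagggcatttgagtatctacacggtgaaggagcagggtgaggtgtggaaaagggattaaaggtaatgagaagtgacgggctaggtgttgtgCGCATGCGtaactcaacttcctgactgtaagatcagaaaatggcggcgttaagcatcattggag

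Succinyl-CoA ligase makes succinate and a nucleoside triphosphate. Its alpha subunit Suclg1 pairs with Suclg2 in the GDP-forming enzyme and with Sucla2 in the ADP-forming one. Suclg1 read 9.36 and 9.44 in shBlnc1 and 9.76 and 9.81 in Scramble (log2 fold change -0.38 ± 0.10 SE, adjusted p = 0.0401). Suclg2 read 8.02 and 8.01 against 8.43 and 8.50, a 1.37-fold fall (adjusted p = 0.0233). This Suclg2 probe set is of a type that can match transcripts of more than 1 gene. The second Suclg2 probe set gave -0.29 and missed the threshold (adjusted p = 0.128 over all probe sets). Sucla2 read 10.26 and 10.24 in shBlnc1 and 10.34 and 10.40 in Scramble, a log2 fold change of -0.12 with a 95% interval of -0.36 to 0.11. Both Suclg genes fell, and whether Sucla2 differed from them was not tested.

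No gene of the last steps of the cycle was called. Fumarase, Fh1, had a log2 fold change of -0.19 (adjusted p = 0.232) with groups that did not overlap. The mitochondrial malate dehydrogenase Mdh2 had -0.09 (adjusted p = 0.583). The cytosolic isoform Mdh1, which serves the malate-aspartate shuttle, had 0.19 (adjusted p = 0.231) on a probe set of a type that can cross-hybridise, and 0.0073 on its other probe set.

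Pyruvate carboxylase, which refills the cycle with oxaloacetate, had the higher of the 2 positive log2 fold changes among the 14. Pcx read 9.99 and 9.86 in shBlnc1 against 9.62 and 9.57 in Scramble, a log2 fold change of 0.34 ± 0.10 SE. It missed the threshold (adjusted p = 0.0672), and it passed in 5 of 8 other settings on all arrays, with adjusted p-values of 0.0006 to 0.087. The array also carries Pcx control probe sets along the transcript. The 3' one read 9.87 and 9.73 in shBlnc1 and 9.49 and 9.41 in Scramble, while those at the 5' end and at both middle positions read between 3.23 and 4.10 on all arrays with log2 fold changes of 0.04 to 0.09. The difference of 0.35 was that of the 3' control, and the other positions were dim, so they do not locate it. The 3' to 5' log2 ratios of the Actb and Gapdh controls were larger in shBlnc1 (means 1.82 and 0.37) than in Scramble (1.07 and 0.06). The part of this in the Pcx values was not tested.

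Leucine, isoleucine and valine breakdown opens with an aminotransferase, Bcat1 in the cytosol and Bcat2 in the mitochondrion. Both probe sets were dim. Bcat2 read 2.82 and 2.80 in shBlnc1 and 2.93 and 2.87 in Scramble, close to the background value of 2.55. Bcat1 read 2.54 and 2.22 against 2.74 and 2.69, with the shBlnc1 mean at background. Neither passed the test (adjusted p = 0.551 and 0.126), and no level of these enzymes can be read from such values.

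The branched-chain keto acid dehydrogenase complex commits the keto acids to oxidation. Its decarboxylase has the subunits Bckdha and Bckdhb, its transacylase is Dbt, and the kinase Bckdk switches it off. Bckdha read 7.89 and 7.78 in shBlnc1 against 8.41 and 8.28 in Scramble, a 1.43-fold fall (log2 fold change -0.51 ± 0.11 SE, adjusted p = 0.0198). Bckdhb read 8.63 and 8.37 against 8.89 and 8.87, and Dbt read 7.44 and 7.40 against 7.74 and 7.71. Neither group pair overlapped, but with log2 fold changes of -0.38 (adjusted p = 0.069) and -0.31 (adjusted p = 0.0731) both missed the threshold. After quantile normalization both passed it, at 0.0478 and 0.0396. The kinase Bckdk read 6.66 and 6.61 in shBlnc1 and 6.53 and 6.57 in Scramble, a log2 fold change of 0.09 with a 95% interval of -0.15 to 0.32, and its sign turned after quantile normalization (-0.04).

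In leucine breakdown the 3 measured genes went in different directions. Methylcrotonyl-CoA carboxylase is a biotin enzyme whose alpha subunit, Mccc1, carries the biotin and whose beta subunit, Mccc2, transfers the carboxyl group. Mccc1 read 8.36 and 8.29 in shBlnc1 against 7.79 and 7.84 in Scramble, a 1.42-fold rise (log2 fold change 0.51 ± 0.10 SE, adjusted p = 0.0159). Mccc2 read 7.36 and 7.34 against 6.81 and 6.84, a 1.44-fold rise (0.52 ± 0.10 SE, adjusted p = 0.0134). All shBlnc1 values of both genes lay above all Scramble values. A second Mccc2 probe set gave 0.52 too, while another, dim one, at 3.14 and 3.25 against 3.52 and 3.56, gave -0.35, and the mean of the 3 had an adjusted p of 0.0882. Auh, the hydratase of the step after the carboxylase, read 7.45 and 7.49 in shBlnc1 and 8.12 and 7.88 in Scramble. It was 1.44-fold lower (-0.53 ± 0.12 SE, adjusted p = 0.0236), and its 4 dimmer probe sets gave -0.44 to -0.15.

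The promoter windows of both carboxylase genes are shown because these were the only members called higher and encode the subunits of 1 enzyme. That of Mccc1 lies at chr3:36000629-36000928 and that of Mccc2 at chr13:100015590-100015889 (GRCm38.p6, minus strand, RefSeq, printed along the gene's strand). Capitals mark CCAAT on either strand, a motif chosen after the sequences had been seen.
Mccc1: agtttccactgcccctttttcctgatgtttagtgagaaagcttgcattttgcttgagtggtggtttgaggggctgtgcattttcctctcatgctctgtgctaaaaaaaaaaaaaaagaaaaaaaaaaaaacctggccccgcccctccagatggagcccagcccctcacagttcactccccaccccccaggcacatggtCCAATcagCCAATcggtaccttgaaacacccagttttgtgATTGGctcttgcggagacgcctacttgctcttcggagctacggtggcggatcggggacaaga
Mccc2: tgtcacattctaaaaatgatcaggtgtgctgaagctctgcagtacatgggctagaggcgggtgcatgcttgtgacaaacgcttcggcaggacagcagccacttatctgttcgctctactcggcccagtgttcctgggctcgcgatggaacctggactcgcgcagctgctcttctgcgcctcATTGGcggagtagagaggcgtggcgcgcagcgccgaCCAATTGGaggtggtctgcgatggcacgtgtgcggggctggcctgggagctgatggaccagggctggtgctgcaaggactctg
Each window held 3 matches, and in Mccc2 a pair of them overlap. At least 1 match was present in 27 of 40 member windows (67.5%), against 37.4% of 32841 promoter windows of this length, of which 11.7% held more than 1. Counted by gene, the share was 18 of 29 members (62.1%), against 41.1% of 27018 genes, and since the motif was chosen from member sequences these shares are a description only.

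Valine breakdown had 4 measured members, all with negative fold changes, of which 2 were called. Hibadh, the hydroxyisobutyrate dehydrogenase, read 9.29 and 9.19 in shBlnc1 against 9.75 and 9.77 in Scramble (log2 fold change -0.52 ± 0.10 SE, adjusted p = 0.0157). Its second probe set, specific to 1 gene by its type, gave -0.68. Hibch, the hydrolase of the step before it, read 8.93 and 8.77 against 9.26 and 9.25, a 1.32-fold fall (adjusted p = 0.0403), and its second probe set gave -0.43. The brightest probe sets of Hibadh and Hibch are of a type that can match transcripts of more than 1 gene. Acad8, the isobutyryl-CoA dehydrogenase, overlapped between the groups, at 5.43 and 5.27 in shBlnc1 and 5.40 and 5.91 in Scramble. Its log2 fold change of -0.30 (adjusted p = 0.265) became -0.56 without Scramble replicate 1 and -0.05 without Scramble replicate 2. It was -0.38 without shBlnc1 replicate 1 and -0.22 without shBlnc1 replicate 2. In the 8 other settings on all arrays its adjusted p-values were 0.135 to 0.395. Aldh6a1, the semialdehyde dehydrogenase that ends the valine branch, had -0.14 (adjusted p = 0.389).

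Of the isoleucine enzymes, Hsd17b10, a multifunctional mitochondrial dehydrogenase that is also part of mitochondrial RNase P, fell 1.39-fold. It read 9.91 and 9.75 in shBlnc1 against 10.37 and 10.25 in Scramble (adjusted p = 0.0277), and a second probe set gave -0.28. Acadsb, the short branched-chain acyl-CoA dehydrogenase, had a log2 fold change of 0.12 (adjusted p = 0.465) from a probe set of a type that can cross-hybridise. Propionyl-CoA carboxylase, like the leucine carboxylase a biotin enzyme with 2 kinds of subunit, was not called. Pcca read 8.62 and 8.55 in shBlnc1 and 8.46 and 8.62 in Scramble, with overlapping groups and a 95% interval of -0.21 to 0.30. Pccb read 6.39 and 6.44 against 6.48 and 6.64, with an interval of -0.40 to 0.11.

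**Figure D2:**
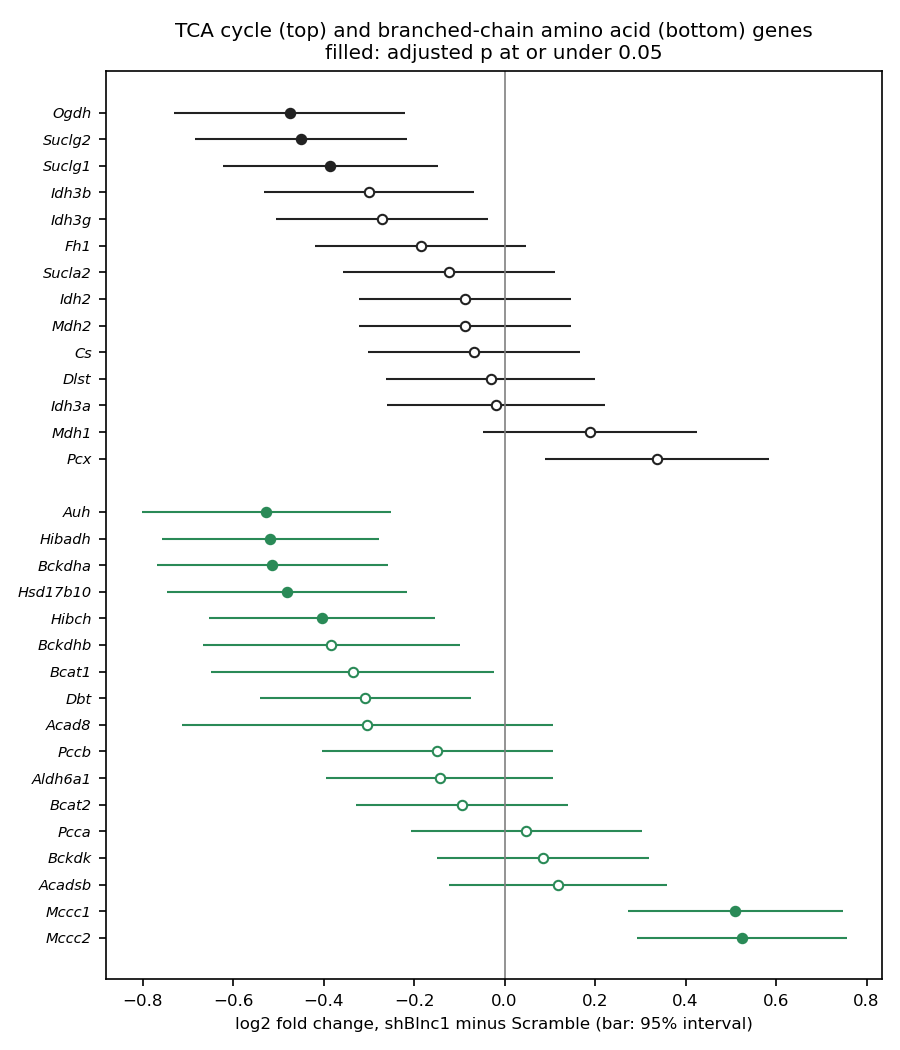
Log2 fold change of each member, shBlnc1 minus Scramble (x axis), with 95% intervals from the limma fit, TCA cycle genes above and branched-chain amino acid genes below, filled where the adjusted p was at or under 0.05. Called genes run from -0.53 (Auh) to 0.52 (Mccc2), and the 21 open points include Bckdhb, Dbt, Idh3b and Pcx, whose unadjusted intervals leave out 0.

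Set side by side, the 2 pathways had median log2 fold changes of -0.11 (TCA cycle) and -0.30 (branched-chain amino acids), beside -0.04 over all 17097 genes. After each array was centred on its median these were -0.04, -0.24 and 0.03. Without shBlnc1 replicate 1 the gap between the pathways was wider, with medians of -0.12 and -0.33. It was the same under the trended prior of eBayes and with the dimmest 40% of genes left out. In some other settings the gap was narrower. Without Scramble replicate 2 the medians were -0.10 for the TCA cycle and -0.12 for branched-chain amino acids, without shBlnc1 replicate 2 they were -0.11 and -0.17, and with all probe sets of a gene averaged they were -0.16 and -0.20. Negative values were found for 12 of 14 TCA cycle genes and 12 of 17 branched-chain genes, and for 55.8% of all genes. In the TCA cycle 3 genes were lower (21.4%, against 7.18% of all genes) and 0 higher (against 11.4%). In the branched-chain pathway 5 were lower (29.4%) and 2 higher (11.8%). Under the trended prior of eBayes 7 genes of each pathway were lower and 2 higher, where 10.5% of all genes were lower and 15% higher. That made 9 of 14 TCA cycle genes and 9 of 17 branched-chain genes called, where the main fit called 21.4% and 41.2%. No test of the difference between the pathways was made. The TCA cycle probe sets were also brighter, 8 of 14 above a log2 value of 10 against 1 of 17, and the values were not adjusted for this.

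**Figure D3:**
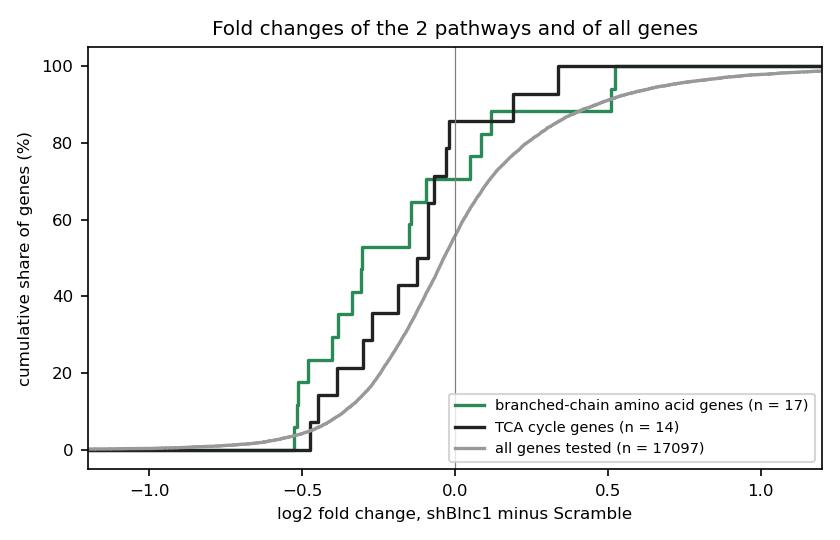
Cumulative share of genes (y axis, percent) by log2 fold change, shBlnc1 minus Scramble (x axis), for 17 branched-chain amino acid genes, 14 TCA cycle genes and all 17097 genes tested. The branched-chain curve begins at -0.53 (Auh) and the TCA cycle curve at -0.48 (Ogdh), the curve of all genes extends further on both sides, and the last 2 branched-chain steps are Mccc1 and Mccc2.

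Several probe sets were present for 19 of the 31 members. Among sets above background, the sign differed within Cs, Idh3a and Mccc2. The called genes Ogdh, Suclg2, Auh, Hibch, Hibadh and Hsd17b10 had negative log2 fold changes on every probe set above background, though not every probe set passed the threshold. The same sign on every such probe set was seen for the uncalled Idh2, Idh3b, Idh3g, Dlst, Mdh2 and Acad8.

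**Figure D4:**
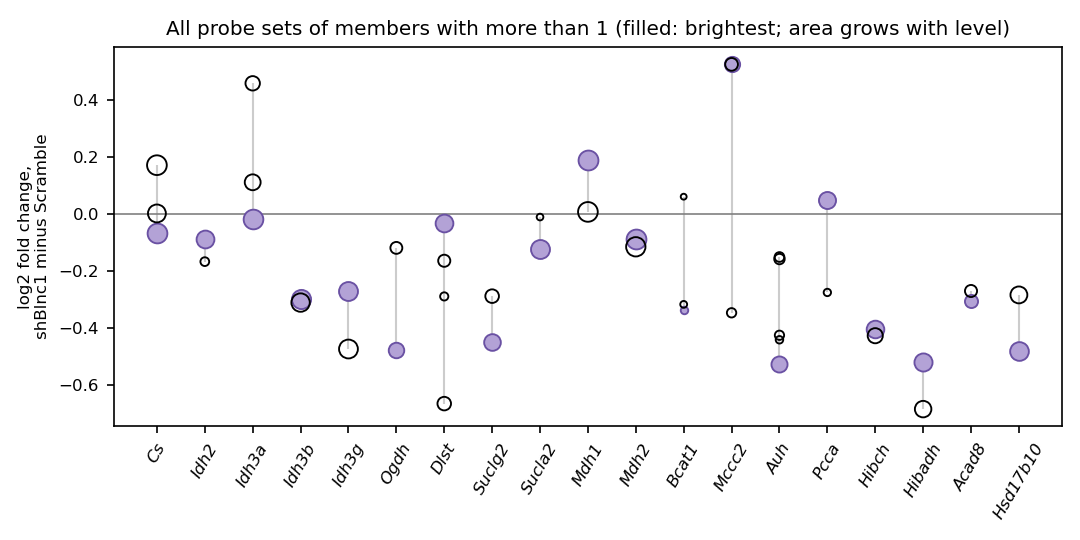
Log2 fold change, shBlnc1 minus Scramble (y axis), of all probe sets of the 19 members with more than 1, filled for the brightest, with an area that grows with the mean log2 value. The probe sets of Hibch and Idh3b lie close together, and those of Idh3a, Dlst and Mccc2 lie apart.

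Other genes around the 2 pathways, from lists chosen with earlier results known, did not share 1 direction. Of 19 measured genes of acetyl-CoA supply, anaplerosis and export, 3 were lower (Aco1, Dlat, Me2) and 4 higher (Acly, Me1, Slc25a10, Pdha1). That is 36.8% called, 15.8% lower and 21.1% higher, against 18.5%, 7.18% and 11.4% of all genes. The median log2 fold change of this list was 0.06. Acly and Me1, which turn exported citrate and malate into acetyl-CoA and NADPH for fat synthesis, had 1.71 and 1.62, and Slc25a10, the dicarboxylate carrier, had 0.77 (adjusted p = 0.00815). The succinate dehydrogenase subunits Sdha, Sdhb, Sdhc and Sdhd were not called, at -0.20 to 0.07. Of 19 genes of amino acid transport, complex control, cofactors and later steps, 2 were lower (Echs1, Mmachc) and 1 higher (Abat). That is 15.8% called, against 18.5% of all genes, with a median of 0.01. Me2 in shBlnc1 (2.35 and 2.29) and Abat in Scramble (2.58 and 2.78) lay at or near the background value of 2.55. Echs1, the enoyl-CoA hydratase that valine and isoleucine breakdown share with fat oxidation, had -1.11. Ppm1k, the phosphatase that switches the keto acid dehydrogenase on, read 5.82 and 6.01 in shBlnc1 and 6.26 and 6.23 in Scramble, a log2 fold change of -0.33 that missed the threshold (adjusted p = 0.08).

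Of 12 measured regulators, 5 were lower (41.7%, against 7.18% of all genes) and 0 higher (against 11.4%). In 5 of 8 other settings on all arrays 1 or 2 regulators were also called higher. The lower regulators included the nuclear receptors Ppara (-1.85), Esrra (-0.49, adjusted p = 0.0175) and Esrrg (-0.39, adjusted p = 0.0417). The other lower ones were the coactivator Ppargc1b (-0.84) and the mitochondrial deacetylase Sirt3 (-0.56, adjusted p = 0.0136). Klf15, known from heart and muscle as an activator of branched-chain amino acid genes, read 6.50 and 6.37 in shBlnc1 and 6.49 and 6.60 in Scramble (log2 fold change -0.11, adjusted p = 0.53). Without shBlnc1 replicate 1 or 2, 2 regulators were called each time.

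Promoter windows were given for 29 of the 31 members, in RefSeq on GRCm38.p6, and were searched on both strands for AAGGTCA, the letters bound by estrogen-related receptors, and for GCATGCG, from the site of nuclear respiratory factor 1. AAGGTCA was found for 1 member, Ogdh, in 1 of its 6 windows, against 5.38% of 27018 genes with a window. GCATGCG was found for Ogdh and Pccb, against 4.02% of genes. A match describes letters and not binding, and its absence concerns these windows only.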

How the data were processed

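RNA of 4 brown adipocyte samples was hybridised to Affymetrix mouse PM strip arrays after 3' labelling of 250 ng total RNA, per the labels' protocols. The deposited values are log2 expression values made by the authors, 1 per probe set and array; the submitters' processing notes name limma, affy and RMA without versions or roles, and how the arrays were normalized is not stated in the sources read. The log2 scale was read from the range of 1.05 to 12.36.

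Of 45141 probe sets, 104 controls were set apart. A gene was its brightest probe set with exactly 1 symbol (17097 genes). Background is the highest antigenomic control with 3 to 24 G or C bases, a log2 value of 2.55. Tests used limma 3.58.1 in R 4.3.3 (lmFit, eBayes, group as the only term, two-sided, Benjamini-Hochberg over all genes, threshold 0.05), with 2 residual and 4.93 prior degrees of freedom, and were checked on simulated data. The median standard error was 0.11, and the number of arrays limits the precision. Replicates correlated at 0.994 to 0.996 and arrays of different groups at 0.982 to 0.984 across probe sets.

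All members were named; per-array values went to called genes, the largest changes and genes with conflicting probe sets, and called genes of the other lists were named. Members were listed by pathway, with no threshold on measured values, but members, lists and alternatives were chosen with earlier results of these data known. A planned comparison of protein sequences was not made. Sequences are from RefSeq (GRCm38.p6). Plots used matplotlib 3.10.9.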

Additional observations from a re-analysis of the deposited data

How the results depend on the processing

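Calls of TCA cycle members, 3 on all arrays, numbered 9 under the trended prior of eBayes, 5 when a gene's probe sets were averaged, and 0 to 1 with 1 array left out. Branched-chain members, 7 called, numbered 0 to 6 with 1 array left out and 6 to 9 otherwise. The other pathway genes (10 called) numbered 21 under the trended prior and 4 to 10 with 1 array left out, and the regulators (5 called) 2 to 4 with 1 array left out. The spread of a lone array was taken from the other group. The TCA cycle median of -0.11 was -0.11 after quantile normalization, -0.042 after median centring, -0.16 when all probe sets, or those above background, were averaged, and -0.14 to -0.10 with 1 array left out. The branched-chain median of -0.30 was -0.24 after centring, -0.20 with all probe sets averaged, and -0.33 to -0.12 with 1 array left out. Signs turned for uncalled genes only: after quantile normalization for Idh3a (0.027), Bckdk (-0.042) and Pcca (-0.0050), after centring for Idh3a (0.046) and Dlst (0.034), with all probe sets averaged for Cs (0.035), Idh3a (0.18) and Pcca (-0.11), with those above background averaged for Cs (0.035) and Idh3a (0.18), and with 1 array left out for Idh3a (-0.073 to 0.036) and Pcca (-0.030 to 0.13). The cause was not tested. With 1 array left out the called genes could not turn, since their groups did not overlap. Suclg2, Bckdha, Mccc1, Auh, Hibadh and Hsd17b10 were called in 8 of 8 other settings on all arrays. After median centring Suclg1 and Hibch had adjusted p-values of 0.0707 and 0.067, against ranges of 0.000152 to 0.0707 and 0.000454 to 0.067 over those settings. With the replicate number as a block, 3 and 7 members of the 2 pathways were called as without it, and 4 regulators. Same-numbered arrays had deviations correlated at 0.034, and no label pairs them. Over all genes, quantile normalization gave 1564 lower and 1514 higher calls, against 1228 and 1941, and centring 844 and 2383.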

Other observations

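Genes of the biotin-dependent carboxylases, grouped after their values had been seen, did not move as 1 set. Beside Mccc1 (0.51) and Mccc2 (0.52), Acaca, the acetyl-CoA carboxylase that opens fatty acid synthesis, read 9.46 in shBlnc1 and 8.74 in Scramble (means), which was higher by 0.72 on the log2 scale (limma adjusted p = 0.00707). Pcx (0.34, limma adjusted p = 0.0672), Pcca (0.05), Pccb (-0.15) and Acacb (-0.13), the isoform tied to control of fat oxidation, were not called. Hlcs, which attaches the biotin, and Btd, which recycles it, had 0.03 and -0.05, with adjusted p-values of 0.907 and 0.787.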
